A study of Mus musculus with 230 samples.

Results

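The 35 genes described here make cholesterol and fatty acids or handle sterols, and they were chosen by name from 53278 genes in the count table. They fall into 3 classes: 18 genes of sterol synthesis, 6 of fatty acid synthesis and 11 of sterol handling and control. The choice used no measured value, although earlier results of these data were known when it was made. All 35 had enough counts to be tested in the low-input libraries. Gene positions given below are those of the gene models used for counting, on mm10.

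Neurons make cholesterol and fatty acids from acetyl-CoA, a product of sugar and citrate metabolism. Sterol synthesis runs from acetyl-CoA through mevalonate and squalene to lanosterol, and then through a series of trimming steps to cholesterol. Both pathways are known to be switched on by the SREBP transcription factors, which stay in the endoplasmic reticulum, bound to SCAP and held by INSIG proteins, while sterols are plentiful. A growing or regrowing axon needs new membrane, and axons are known to draw on lipid made in the cell body and on lipid delivered by glia.

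The RNA came from sensory neurons of the L4 and L5 dorsal root ganglia of mice from a cross of C57BL/6 and CAST/Ei, picked by hand after enzymatic dissociation. Neurons were labelled intact or injured, after surgery on the sciatic nerve, whose sensory fibres come from these ganglia. The time between surgery and sampling, the sex of the mice and the side taken as intact are not stated in the labels. Names of injured RNA samples carry an r or R where those of intact ones carry an l or L, and the letter is not explained. If it marks the side, side and condition cannot be told apart. Every group carried the same cross and no transgene or drug is named. The 18 low-input libraries, for which the number of neurons is not given in the labels, formed 6 groups of 3, intact and injured at 1, 8 and 12 months. For single cells the nucleus was removed first, so their RNA is cytoplasmic. The 69 single cells were 18 intact and 21 injured at 1 month, and 8 intact and 22 injured at 1 year. The methylation libraries are not analysed here. The labels do not say that libraries of a group came from separate animals, so p-values measure only the spread between these libraries, which may be technical.

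A low-input library held 7531967 to 19443627 gene counts, of which a single feature, CT010467.1, took 29.4% to 93.8%, leaving 770328 to 11587094. The second intact 12-month library stood apart, with the lowest of these values (770328), 40.5% of its remaining counts from mitochondrial genes, and a satellite glia marker sum of 1849 CPM (counts per 1000000 of the scaled library) against 127 to 605 CPM in the other 17. The number of members called in the injury average, at 12 months and between intact 12 and 8 months is given with and without it, as are the 12-month class medians. Changes of single genes, class sums, the interaction and spike-in results are given with it only. At 12 months the counts left outside that feature did not overlap between conditions, at 770328 to 4763857 in intact and 5346810 to 6812005 in injured libraries, and the part of this gap in the results was not tested. The sum of 6 nerve injury genes (Atf3, Sprr1a, Gal, Npy, Sox11 and Ecel1) was 3.19 to 28 CPM in the 9 intact and 519 to 2979 CPM in the 9 injured libraries, so the condition labels held in every library. The 8 neuronal markers summed to 3495 to 7895 CPM. All 6 Schwann cell markers tested summed to 205 to 867 CPM, mostly from Pmp22. The satellite glia sum was mostly S100b and Glul, and Fabp7 averaged 0.873 to 26.8 CPM over the groups. Of 8 immune markers 2 passed the filter, and they summed to at most 8.75 CPM. The fibroblast and endothelium sum, over 2 of 6 markers and nearly all Dcn, was higher in injured libraries at 1 month (5.02 ± 3.13 against 37.8 ± 17 CPM, SD, n = 3) and at 8 months (4.57 ± 3.56 against 36.9 ± 21.1 CPM). The part of these other cells in the results below was not tested, and in a pooled library fewer cells of a type and less RNA per cell cannot be told apart.

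Per unit of exon length, the 35 genes spanned a wide range in the 18 low-input libraries. On the RPKM scale (CPM divided by exon length in kilobases), the fatty acid desaturase gene Scd2 had the highest mean level, 47.4 ± 13.3 (SD, n = 18). It was followed by Acat2, which joins acetyl-CoA units at the entry to the mevalonate pathway, at 45.3 ± 14.2 RPKM, and Acly, which makes cytosolic acetyl-CoA from citrate, at 37.2 ± 16.4 RPKM. These 3 levels differ by less than their spread. Fdft1 (squalene synthase) and Hmgcs1 (the synthase that commits acetyl-CoA units to the mevalonate route) came next, at 34.1 ± 8.89 and 31.8 ± 11 RPKM. At the bottom stood Soat1, which esterifies cholesterol for storage, at 1.47 ± 0.535 RPKM, Npc1, which exports cholesterol from lysosomes, at 0.952 ± 0.306 RPKM, and Fdps at 0.775 ± 0.464 RPKM. The value of Fdps (farnesyl diphosphate synthase) is uncertain, because 26.7% of its exon bases overlap another gene, Gm43738, and reads that match more than 1 place were not counted. The counting also ignored strand. Smaller exon overlaps with other genes, of 0.529% to 18.3% of exon bases, affect 11 other members, Fdft1 (18.3%, with Ctsb), Tm7sf2 (15.3%), Scap (13.2%) and Hmgcs1 (12.1%) most.

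**Figure D1:**
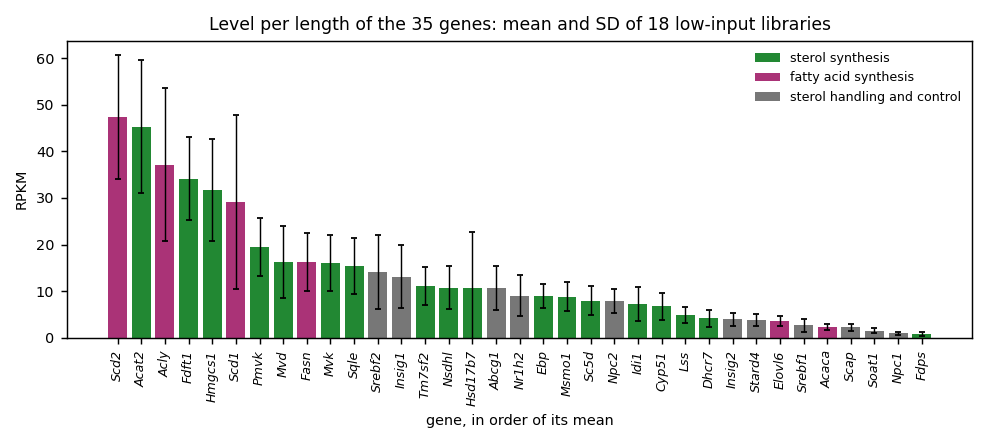
Mean level of each of the 35 genes in RPKM (vertical axis), in order of the mean (horizontal axis), with error bars giving the SD of 18 low-input libraries and colours giving the class. Scd2, Acat2 and Acly lead at 47.4, 45.3 and 37.2 RPKM, and the lowest 4 genes are Scap, Soat1, Npc1 and Fdps.

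The members were first compared between injured and intact neurons as the average over the 3 ages. Of 35 genes, 5 rose with injury and 0 fell (edgeR quasi-likelihood test, two-sided, Benjamini-Hochberg adjusted p below 0.05 over 14212 genes). These were the sterol synthesis genes Hsd17b7 and Sqle, the fatty acid synthesis genes Acly and Acaca, and the control gene Insig1. That is 14.3% of the members, against 6.18% of all genes tested called in either direction, 5.11% higher and 1.07% lower. In sterol synthesis 17 of 18 genes had a positive log2 change, with a median of 0.45, in fatty acid synthesis 4 of 6 (median 0.42) and in sterol handling 6 of 11 (median 0.13), where 52.7% of all genes were positive with a median of 0.03. With the replicate number as a block, 2 stayed called, Hsd17b7 and, just under the threshold, Sqle (edgeR adjusted p of 9.74e-04 and 0.0458). Acly, Acaca and Insig1 did not (edgeR adjusted p of 0.13, 0.16 and 0.0778). That fit called 329 of all genes, where the main fit called 878. Leaving out single libraries gave from 2 to 10 calls: it fell to 2 without any 1 of 8 libraries (intact 1-month replicate 1 or 2, injured 1-month replicate 1 or 3, injured 8-month replicate 3, or any injured 12-month library), to 3 without intact 8-month replicate 3 or injured 8-month replicate 1 or 2, and rose to 10, all higher, without the second intact 12-month library, which added Hmgcs1, Cyp51, Dhcr7, Nsdhl and Scd2. All genes called fell to 561 without injured 12-month replicate 2 and rose to 1462 without the second intact 12-month library. All genes called also rose, to 1090 without injured 8-month replicate 1 and to 1001 without intact 8-month replicate 3. In those 2 fits the members called fell to 3, so the members did not follow the number of all genes called. With the 12-month libraries kept out of the average, a setting chosen after seeing the data, 0 members and 279 of all genes were called. The medians of the 3 classes were then 0.26, 0.09 and 0.05.

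The sequences just upstream of 4 of the genes called after injury, 3 higher and 1 lower (Npc2), are shown because they hold the CCAAT box, a promoter element bound by NF-Y that is known to work beside SREBP. They come from the 250 bases before the RefSeq start on GRCm38.p6, less any bases inside the gene model used for counting, 5′ to 3′ on the gene's strand, with capitals marking CCAAT or its reverse complement ATTGG and, in Hmgcs1, TCACCCCAC, a match to the sterol regulatory element core TCACNCCAC. The windows are chr13:119690101-119690350 (plus strand) for Hmgcs1, chr1:169969242-169969455 (minus strand) for Hsd17b7, chr5:28071162-28071362 (plus strand) for Insig1 and chr12:84773153-84773362 (minus strand) for Npc2. The window of Acly holds 0 such boxes. The RefSeq start of Acaca lies inside the gene model used for counting, so no upstream bases were left to show, and Sqle had no window.
Hmgcs1: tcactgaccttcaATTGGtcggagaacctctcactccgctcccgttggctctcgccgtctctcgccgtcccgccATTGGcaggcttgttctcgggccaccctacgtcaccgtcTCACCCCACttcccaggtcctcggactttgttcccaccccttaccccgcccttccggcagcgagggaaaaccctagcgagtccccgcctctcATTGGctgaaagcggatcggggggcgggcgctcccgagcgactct
Hsd17b7: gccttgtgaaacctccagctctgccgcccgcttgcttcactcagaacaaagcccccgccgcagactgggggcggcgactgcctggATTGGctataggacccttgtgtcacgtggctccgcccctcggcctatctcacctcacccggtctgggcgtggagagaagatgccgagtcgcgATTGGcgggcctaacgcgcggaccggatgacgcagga
Insig1: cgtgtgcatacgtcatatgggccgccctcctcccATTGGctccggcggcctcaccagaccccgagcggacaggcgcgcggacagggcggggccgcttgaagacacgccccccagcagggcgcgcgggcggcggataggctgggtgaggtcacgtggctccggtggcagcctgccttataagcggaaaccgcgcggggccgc
Npc2: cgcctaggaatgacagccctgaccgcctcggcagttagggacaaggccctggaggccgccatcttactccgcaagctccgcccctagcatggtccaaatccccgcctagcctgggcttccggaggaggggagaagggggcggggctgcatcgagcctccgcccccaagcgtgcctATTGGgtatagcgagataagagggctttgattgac

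Upstream windows were searched for 3 motifs on both strands, TCACNCCAC (reverse GTGGNGTGA), CCAAT (reverse ATTGG) and GGGCGG (reverse CCGCCC), from 250 bases before to 50 after each start. RefSeq windows were found for 27 of the 35 members. CCAAT or its reverse was in 22 of 27 members (81.5%), among them 14 of 15 sterol synthesis genes, 2 of 4 fatty acid synthesis genes and 6 of 8 sterol handling genes. It was in 37.4% of all 32851 windows and in 42.7% of the 10485 tested genes that had one. GGGCGG, the core bound by Sp1, was in 22 of 27 members (81.5%) and in 68.3% of the tested genes. TCACNCCAC was in 1 member, Hmgcs1, at -137 from the start, and in 1.42% of the tested genes. Matches to different motifs, and CCAAT and ATTGG themselves, can share bases, as CCAAT and ATTGG do in Fasn. These counts describe letters in a window and carry no test.

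Hsd17b7 (chr1:169949535-169969241, minus strand) encodes a keto reductase of the step that strips methyl groups from sterols on the way to cholesterol. Its level in the 3 intact libraries was 23, 20.9 and 18.4 CPM at 1 month, 18.4, 19.7 and 15.6 CPM at 8 months, and 20.3, 41.5 and 8.26 CPM at 12 months. In the injured libraries it was 76.2, 31.1 and 36.6 CPM at 1 month, 47.6, 50.8 and 33.5 CPM at 8 months, and 165, 247 and 106 CPM at 12 months. Every injured library lay above every intact library of its age, with the widest gap at 12 months. The averaged log2 change was 1.84 ± 0.27 (SE; edgeR adjusted p = 4.94e-04), and it was 3.02 ± 0.50 at 12 months (edgeR adjusted p = 0.00455). At 1 and 8 months the log2 changes were 1.21 ± 0.45 and 1.30 ± 0.45, with edgeR adjusted p of 0.774 and 0.216. Hsd17b7 and Nsdhl, whose enzyme acts in the same demethylation complex, were the 2 members whose injured libraries lay above the intact ones at all 3 ages, which held for 1.83% of all genes, while 0 members lay below at all 3 ages, against 0.12% of all genes. Nsdhl, singled out after its values were seen, had an averaged log2 change of 0.81 ± 0.31 that missed the threshold (edgeR adjusted p = 0.137). The share of all genes whose groups were apart at a single age was not counted, here or for the genes below.

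Sqle (chr15:59315077-59331192, plus strand) encodes squalene epoxidase, the first oxygen-using step of sterol synthesis. It stood at 50.8, 49.6 and 66.5 CPM in intact and 88.3, 70.2 and 96.3 CPM in injured libraries at 1 month. At 8 months the values were 68.6, 117 and 83.6 CPM intact and 116, 116 and 95.4 CPM injured. At 12 months they were 51.2, 19.9 and 52.4 CPM intact and 127, 136 and 129 CPM injured. The groups were apart at 1 and 12 months and overlapped at 8 months. The averaged log2 change was 0.84 ± 0.18 (edgeR adjusted p = 0.00841), with 1.61 ± 0.32 at 12 months (edgeR adjusted p = 0.0132, and 0.0786 with the replicate block).

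Hmgcs1 (chr13:119690379-119708260, plus strand) was called at 12 months but not in the average. Its values were 82.8, 89.2 and 129 CPM intact and 136, 114 and 153 CPM injured at 1 month, and 134, 209 and 154 CPM intact and 167, 121 and 130 CPM injured at 8 months. At 12 months it stood at 114, 99.3 and 93.9 CPM in intact and 233, 250 and 216 CPM in injured libraries. The 12-month groups lay far apart and the 1-month and 8-month groups overlapped. The log2 change at 12 months was 1.19 ± 0.26 (edgeR adjusted p = 0.0239, and 0.143 with the replicate block), against 0.42 ± 0.26 at 1 month and -0.25 ± 0.26 at 8 months, and the average of 0.45 ± 0.15 had an edgeR adjusted p of 0.0821.

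Acly (chr11:100476353-100528000, minus strand), whose enzyme feeds acetyl-CoA to both pathways, stood at 128, 103 and 210 CPM in intact and 216, 136 and 181 CPM in injured libraries at 1 month. At 8 months it was 175, 269 and 296 CPM intact and 373, 213 and 236 CPM injured. At 12 months it was 99.7, 48.8 and 72.4 CPM intact and 234, 305 and 236 CPM injured. The 12-month groups were apart, and those at 1 and 8 months overlapped. The log2 change was 0.74 ± 0.20 in the average (edgeR adjusted p = 0.0355) and 1.79 ± 0.36 at 12 months (edgeR adjusted p = 0.0149). Neither call held with the replicate block.

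Acaca (chr11:84129672-84401651, plus strand) encodes acetyl-CoA carboxylase, which commits acetyl-CoA to fatty acids. It was 40.7, 31.3 and 42.5 CPM in intact and 46.1, 32.4 and 42.5 CPM in injured libraries at 1 month, and 48.3, 46 and 34.7 CPM intact and 49.5, 40.1 and 52.4 CPM injured at 8 months. At 12 months it was 25.2, 19.9 and 16.5 CPM intact and 49.8, 53.1 and 51.9 CPM injured. Only the 12-month groups were apart, and there the intact libraries were the low ones of the 18 while the injured ones resembled those of the other ages. The log2 change was 0.51 ± 0.15 in the average (edgeR adjusted p = 0.0457) and 1.32 ± 0.26 at 12 months (edgeR adjusted p = 0.0147), and both calls were lost with the replicate block.

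Insig1 (chr5:28071363-28078662, plus strand) encodes a sterol sensor that holds SCAP and SREBP in the endoplasmic reticulum, and the gene is itself a known SREBP target. Its values were 25.5, 31.8 and 33.5 CPM intact and 65.3, 43.6 and 66.5 CPM injured at 1 month, and 8.76, 45.8 and 27.6 CPM intact and 26, 43.8 and 38.6 CPM injured at 8 months. At 12 months they were 29, 10.8 and 30.2 CPM intact and 57, 91.9 and 54.1 CPM injured. The groups were apart at 1 and 12 months and overlapped at 8 months. The averaged log2 change was 0.93 ± 0.27 (edgeR adjusted p = 0.045), a call lost with the replicate block, and the 12-month change of 1.45 ± 0.47 was not called (edgeR adjusted p = 0.105).

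**Figure D2:**
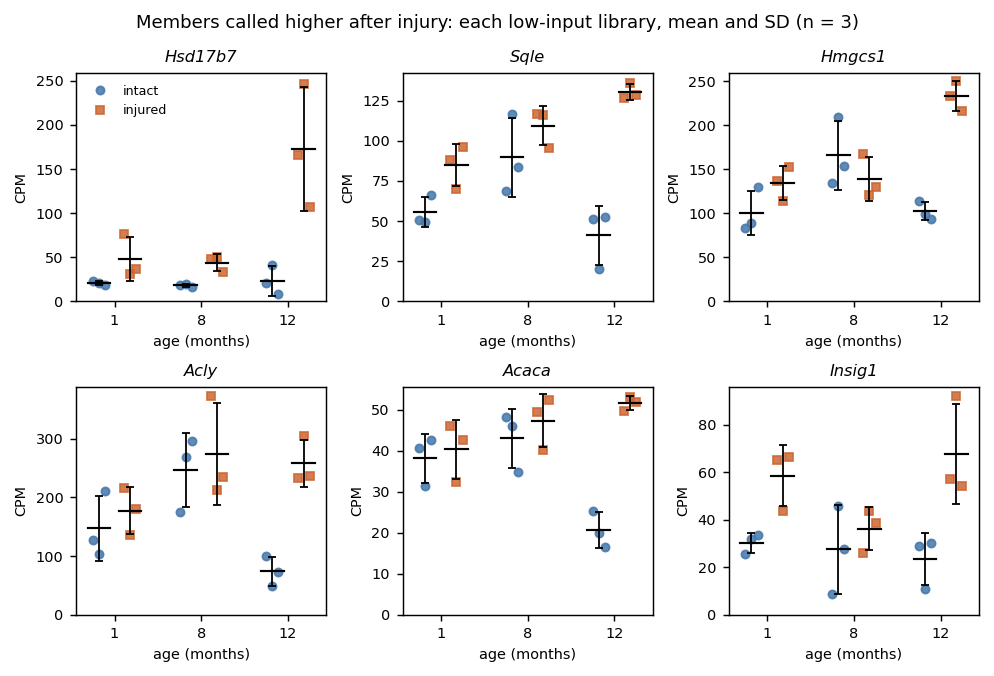
CPM of the 6 genes called higher after injury in the average or at 12 months (vertical axes, from 0) by age in months (horizontal axes). Points are the 3 libraries of a group, circles intact and squares injured, with the mean and SD in black. At 12 months all injured libraries lie above all intact libraries in each panel. The genes were chosen by their calls in these same libraries, so this gap adds no evidence to the calls. The share of all genes apart at 12 months was not counted.

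Each class also held members that did not rise. The most negative averaged change in sterol synthesis was that of Pmvk (phosphomevalonate kinase), at -0.20 ± 0.15 (edgeR adjusted p = 0.493). It stood at 51.8, 49.8 and 49.8 CPM intact and 35.1, 36.3 and 33 CPM injured at 1 month, at 17.1, 18.4 and 27.7 CPM intact and 29.97, 29 and 30.4 CPM injured at 8 months, and at 32.8, 47 and 34.1 CPM intact and 21.5, 32.8 and 21.2 CPM injured at 12 months. Its injured libraries were thus the lower ones at 1 month and the higher ones at 8 months. In fatty acid synthesis it was Elovl6, which lengthens palmitate, at -0.11 ± 0.20 (edgeR adjusted p = 0.826).

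The Elovl6 libraries were at 31, 15.4 and 35.1 CPM intact and 19.1, 22.6 and 24 CPM injured at 1 month. They were at 25.3, 35 and 22.1 CPM intact and 34.7, 19.5 and 14.8 CPM injured at 8 months, and at 17, 16.3 and 18.5 CPM intact and 16.8, 20.7 and 24.5 CPM injured at 12 months, with overlap at every age. In sterol handling the most negative change was that of Abcg1, which exports cholesterol from cells, at -0.39 ± 0.23 (edgeR adjusted p = 0.377). Abcg1 stood at 94.0, 65.4 and 54.2 CPM intact and 35.6, 60.1 and 53.7 CPM injured at 1 month, and at 56.2, 52.6 and 32.4 CPM intact and 22, 42.8 and 30.5 CPM injured at 8 months. At 12 months it was 29.2, 39.7 and 23 CPM intact and 30.3, 12.2 and 41.4 CPM injured, and its groups overlapped at all 3 ages.

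Of the other 13 sterol synthesis genes not yet described (Acat2, Mvk, Mvd, Idi1, Fdps, Fdft1, Lss, Cyp51, Tm7sf2, Msmo1, Ebp, Sc5d and Dhcr7), all had a positive averaged log2 change, from 0.14 for Fdps to 0.78 for Cyp51, and 0 were called. Dhcr7, which acts at the end of the pathway, and Sc5d, a sterol desaturase, came nearest, at 0.76 ± 0.22 and 0.68 ± 0.20 (edgeR adjusted p of 0.0525 and 0.0552). In fatty acid synthesis Fasn (fatty acid synthase) was at 0.45 ± 0.24, Scd2 at 0.39 ± 0.16 and Scd1 at -0.03 ± 0.47. The 2 SREBP genes were at -0.19 ± 0.22 for Srebf1 and -0.35 ± 0.33 for Srebf2, with edgeR adjusted p of 0.693 and 0.603. The rest of the handling genes ran from -0.29 for Npc2 to 0.56 for Soat1, with Scap, Insig2, Npc1, Stard4 and Nr1h2 between them.

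**Figure D3:**
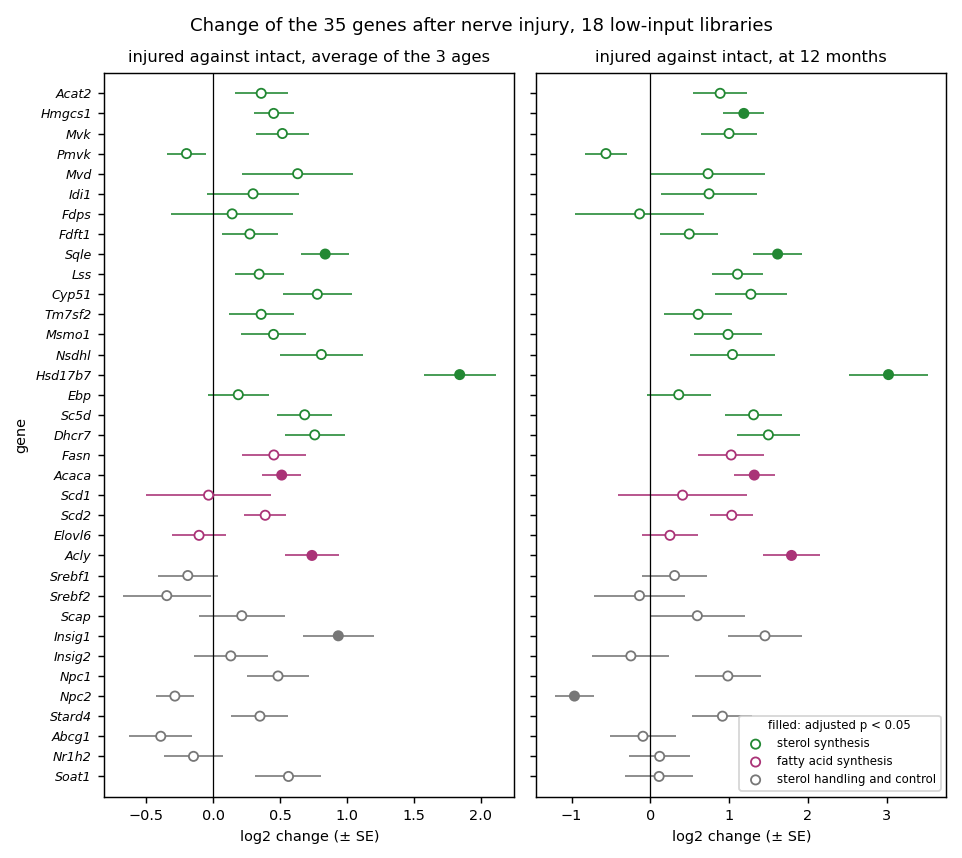
Log2 change from intact to injured (horizontal axes) of the 35 genes (vertical axis), as the average of 3 ages on the left and at 12 months on the right, with SE bars, from 18 low-input libraries. Filled points passed the threshold: 5 genes on the left, and 6 on the right, of which Npc2 at -0.96 is the one on the negative side.

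Age by age, 0 of 35 members were called at 1 month, where 0.232% of all genes were, and 0 at 8 months, where 0.957% were. At 12 months 5 rose (Hsd17b7, Acly, Sqle, Acaca and Hmgcs1) and 1 fell (Npc2), 17.1% of the members against 2.99% of all genes, 2.19% higher and 0.802% lower. Members with an unadjusted edgeR p below 0.05 numbered 1, 3 and 19 of 35 at 1, 8 and 12 months, where 640, 1727 and 2640 of all 14212 genes had one. The class medians at 12 months were 0.99 for sterol synthesis (16 of 18 positive), 1.03 for fatty acid synthesis (6 of 6) and 0.12 for sterol handling (7 of 11), and that of all genes was 0.08. With the replicate number as a block 1 member stayed called, Hsd17b7, and with only the 12-month libraries in the fit 0 did. Those 2 fits called 58 and 52 of all genes, where the main fit called 425. Leaving out single libraries gave 1 to 10 calls, with 1 without injured 12-month replicate 2, 3 without injured 12-month replicate 1 and 10 without intact 8-month replicate 1. All genes called in these 3 fits numbered 74, 96 and 622. Without the second intact 12-month library 9 members were called, 8 of them higher, beside 1036 of all genes, and the medians were 0.61, 1.27 and 0.63.

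Whether the injury change itself differed with age was tested as an interaction. It was called for 0 members, and for 0% of all genes (edgeR joint F test). At an unadjusted p below 0.05 there were 10 members and 1161 genes, and DESeq2 called 1 member, Hmgcs1. The smallest edgeR adjusted p among members was 0.352, for Hmgcs1, so a larger response at 12 months than at the other ages is not shown for any single member.

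Npc2 (chr12:84754562-84773152, minus strand) encodes a lysosomal protein that hands cholesterol to NPC1, and it was the only member called lower after injury in the 4 injury contrasts fitted. It stood at 57.4, 77.7 and 72.4 CPM in intact and 34.7, 35.4 and 35.6 CPM in injured libraries at 12 months. At the other ages it was 36.3, 43 and 34.3 CPM intact and 35.5, 45.7 and 31.3 CPM injured at 1 month, and 43.9, 32.2 and 34.7 CPM intact and 45, 43.2 and 32.2 CPM injured at 8 months. The 12-month intact libraries were the high ones, and the injured libraries lay in the range of the other ages. The log2 change at 12 months was -0.96 ± 0.25 (edgeR adjusted p = 0.0435). It lost its call in 18 of 26 alternative analyses, and in 1 more, spike-in scaling, it was called with a positive value.

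Comparing ages within intact neurons, 7 members differed between 12 and 8 months, 6 lower at 12 months and 1, Npc2, higher. That is 20% of the members, against 6.69% of all genes, 2.77% higher and 3.92% lower. These contrasts share the intact 12-month libraries with the injury contrast at that age, so the 2 sets of values are not independent. Acly had the largest change among the synthesis genes, at -1.72 ± 0.36 (edgeR adjusted p = 0.0123), with Lss (lanosterol synthase) at -1.25 ± 0.33 and 0.031, Scd2 at -1.22 ± 0.28 and 0.0184, Sqle at -1.07 ± 0.31 and 0.0477, and Acaca at -1.05 ± 0.26 and 0.0256. Npc2 was at 0.90 ± 0.25 (edgeR adjusted p = 0.0391). The call of Sqle was lost in 20 of 25 alternative analyses. That of Npc2 was lost in 14, and in 1 more, spike-in scaling, its value turned negative. With only these 2 groups in the fit 0 members were called, with spike-in scaling 2, without intact 8-month replicate 2 there were 2 and without intact 12-month replicate 3 there were 3. All genes called in these fits numbered 0, 866, 386 and 742, against 951 in the main fit. Without the second intact 12-month library the number called was 10, with Fasn, Scap and Srebf2 added, and 2110 of all genes were called.

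Srebf1 (chr11:60199089-60222581, minus strand), the SREBP gene best known for fatty acid synthesis, had the lowest value of that comparison. It stood at 32.4, 29.3 and 30.4 CPM in the 3 intact 8-month libraries, above every other library. The other intact values were 10.5, 9.47 and 14 CPM at 1 month and 10.3, 16.3 and 3.91 CPM at 12 months, and the injured values 9.74, 12.2 and 16.4 CPM at 1 month, 10.9, 16.2 and 17.3 CPM at 8 months and 8.60, 11 and 14.1 CPM at 12 months. The log2 change from 8 to 12 months was -1.76 ± 0.42 in intact neurons (edgeR adjusted p = 0.0219), and from 1 to 8 months it was 1.44 ± 0.38 (edgeR adjusted p = 0.0803). In the same intact 8-month libraries the Schwann cell marker sum had its highest group mean, 617 ± 222 CPM (SD, n = 3), against 263 to 449 CPM in the other 5 groups, and its part in the Srebf1 level was not tested.

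Scd2 in intact libraries was 178, 205 and 333 CPM at 1 month, 269, 388 and 296 CPM at 8 months and 117, 173 and 121 CPM at 12 months. In injured libraries it was 290, 276 and 289 CPM, then 335, 268 and 274 CPM, then 270, 278 and 288 CPM. The injured libraries kept to a narrow band at 1 and 12 months, and the intact 12-month libraries were the 3 lowest of all 18. Lss in intact libraries was 49.8, 30.7 and 50.8 CPM, 48.4, 76.7 and 78.2 CPM, and 21.4, 32.5 and 32.6 CPM at the 3 ages. In injured libraries it was 51.4, 37.2 and 43.8 CPM, 91.4, 51.3 and 48.7 CPM, and 56.8, 72.7 and 54 CPM.

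From 1 to 8 months in intact neurons 1 member was called, Pmvk, at -1.26 ± 0.26 (edgeR adjusted p = 0.0294), against 0.922% of all genes, and from 1 to 12 months 0 members were called, against 0.246%. Within injured neurons 0 members were called between 8 and 1, 12 and 1, or 12 and 8 months, where 0.225%, 0.113% and 0.0633% of all genes were. In these 3 contrasts 0, 2 and 2 of 35 members had an unadjusted edgeR p below 0.05, as did 709, 549 and 610 of all 14212 genes. The largest of these changes was that of Hsd17b7, 1.98 ± 0.46 from 8 to 12 months (edgeR adjusted p = 0.296), and DESeq2 called it, with no other member, from 1 to 12 and from 8 to 12 months.

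Summed over a class, the sterol synthesis genes reached 738, 715 and 966 CPM in intact and 984, 855 and 969 CPM in injured libraries at 1 month, and 727, 1019 and 993 CPM intact and 1380, 993 and 881 CPM injured at 8 months. At 12 months they reached 686, 415 and 875 CPM intact and 1342, 1656 and 1229 CPM injured. The 12-month groups were apart, and the others overlapped. Fatty acid synthesis genes at 12 months summed to 384, 527 and 420 CPM intact and 892, 1008 and 905 CPM injured, while at 8 months the intact mean of 1064 ± 404 CPM (SD, n = 3) was close to the injured mean of 1004 ± 286 CPM. Sterol handling genes showed no such gap, at 246, 334 and 230 CPM intact and 269, 310 and 305 CPM injured at 12 months. A sum gives most weight to the most abundant genes.

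**Figure D4:**
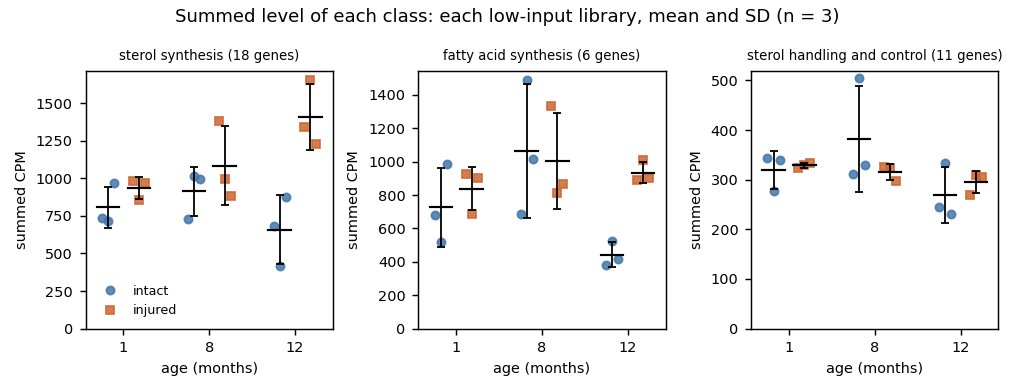
Summed CPM of each class (vertical axes, from 0) by age in months (horizontal axes), circles intact and squares injured, 3 libraries a group with mean and SD in black. At 12 months the injured sterol synthesis sums (1229 to 1656 CPM) and fatty acid synthesis sums (892 to 1008 CPM) lie above the intact ones, and the sterol handling sums overlap.

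These changes are relative to the other genes of a library. When libraries were scaled to the ERCC spike-ins, RNA added in the laboratory, the median of all genes moved up by 2.90 on the log2 scale in the average and by 1.30, 2.03 and 5.36 at 1, 8 and 12 months, and all 35 members turned positive, Pmvk, Elovl6, Abcg1 and Npc2 included. Relative to that shift, 25 of 35 members lay above the median gene in the average and 10 below, with class medians of 0.26 for sterol synthesis, 0.32 for fatty acid synthesis and -0.12 for sterol handling. At 8 months the sterol and fatty acid synthesis medians were then below the median gene, at -0.16 and -0.59, where library scaling gave 0.32 and -0.05.

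Neighbouring pathways were read from lists of genes that are not members. In the averaged injury contrast 1 of 11 genes of the isoprenoid branch outside sterols was called, Coq2 (ubiquinone synthesis), which fell by 0.76 ± 0.20 on the log2 scale (edgeR adjusted p = 0.0337). Of 18 other sterol transport and oxysterol genes tested, 1 rose, the lipoprotein receptor gene Scarb1, from 0.692 ± 0.758 to 2.65 ± 0.959 CPM (SD, n = 9; edgeR adjusted p = 0.0367). Of 18 genes of fatty acid elongation and desaturation tested, 2 rose. Elovl4, an elongase for very long chains, rose from 25.5 ± 9.03 to 40.5 ± 12.0 CPM (edgeR adjusted p = 0.0247), and Elovl2, an elongase of polyunsaturated fatty acids, from 0.178 ± 0.316 to 1.70 ± 0.90 CPM (edgeR adjusted p = 0.00149). Of 17 genes of mitochondrial fatty acid oxidation 1 was called, Eci1, which fell by 1.16 ± 0.20 on the log2 scale (edgeR adjusted p = 0.00161). The shares called in these 4 lists were 9.09%, 5.56%, 11.1% and 5.88%, against 6.18% of all genes. The medians were 0.03, 0.39, 0.39 and 0.21, against 0.03 for all genes. Positive log2 changes were found for 6 of 11, 15 of 18, 15 of 18 and 12 of 17 genes, against 52.7% of all genes.

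The labels tie no cell to an animal, so a group of cells was treated as a single sample, without a test. The summed counts of its cells are given as CPM of all counts outside CT010467.1, a different denominator from the low-input CPM, with exact 95% Poisson intervals that cover counting error only. The labels held less well here. The 6 nerve injury genes summed to 309 CPM in intact and 4790 CPM in injured cells at 1 month, but to 80.6 and 152 CPM at 1 year, and the median cell labelled injured had 110 CPM at 1 month and 86.8 CPM at 1 year, so the cells labelled injured were not all marked by these genes. Depth also differed, with medians of 291824 and 1033580 counts outside that feature in cells labelled intact and injured at 1 month, and 7145018 and 3524089 at 1 year, and 1 cell labelled injured held no counts.

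Sterol synthesis genes were the class whose pooled counts were higher in the cells labelled injured at both ages. They summed to 2507 CPM (95% interval 2491 to 2524) in intact and 3619 CPM (3603 to 3635) in injured cells at 1 month, a ratio of 1.44, and to 1937 CPM (1926 to 1949) and 2940 CPM (2929 to 2951) at 1 year, a ratio of 1.52. In pooled counts 15 of 18 genes were higher at 1 month and 18 of 18 at 1 year, where 45.6% and 49.6% of all genes with at least 10 CPM were. Pooling weights deep cells most: by the mean of cells 13 and 17 of 18 were higher, and by the median cell, a measure added after seeing the data, 14 and 10 of 18. At 1 year the median cell labelled injured was the lower one for Mvk, Fdps, Lss, Cyp51, Tm7sf2, Nsdhl, Hsd17b7 and Sc5d. The median log2 ratios of pooled counts were 0.50 and 0.62, against -0.07 and -0.01 for those genes. Over 2-fold higher were 1 gene at 1 month, Hsd17b7, and 0 at 1 year, against 5.98% and 7.32% of all genes, and 0 members of the class were over 2-fold lower, against 10.7% and 5.61%. Hsd17b7 went from 70.02 to 174 CPM at 1 month (ratio 2.48) and its mean of cells from 55.6 to 161 CPM. At 1 year the pooled value went from 54.1 to 81.6 CPM (1.51), but 1 cell held 52.2% of the Hsd17b7 counts of the cells labelled injured, and both the mean of cells (52.6 against 45.4 CPM) and the median cell (54.5 against 29.7 CPM) were lower there. Sqle went from 243 to 480 CPM (1.98) and from 226 to 359 CPM (1.59), with means of cells of 185 and 358 CPM and of 234 and 275 CPM.

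Between cells the spread was wide. Shallow cells can hold no count of a class, and the sterol synthesis sum of a cell ranged from 0 to 3781 CPM (median 1803) in intact and from 0 to 5116 CPM (median 3283) in injured cells at 1 month, and from 1161 to 3180 CPM (median 1533) and 0 to 5939 CPM (median 2542) at 1 year. The cells of the 2 conditions overlapped at both ages. Schwann cell markers moved the same way, from 831 to 1508 CPM at 1 month and from 1285 to 2188 CPM at 1 year, as did the satellite glia markers, from 659 to 770 CPM and from 906 to 1483 CPM. Their part in the higher sums was not tested.

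The other 2 classes did not move the same way at both ages. Fatty acid synthesis genes summed to 2278 CPM in intact and 2105 CPM in injured cells at 1 month (ratio 0.924) and to 1684 and 2726 CPM at 1 year (1.62). In pooled counts all 6 were higher at 1 year, 2 of them over 2-fold, Scd1 at 216 against 626 CPM and Elovl6 at 30.5 against 76.4 CPM, while at 1 month 3 of 6 were higher. By the mean of cells 5 of 6 were higher at 1 year, Acaca being lower at 80.7 against 71.6 CPM, and 2 of 6 at 1 month. Sterol handling genes summed to 856 and 629 CPM at 1 month (0.735), with 3 of 11 higher and Abcg1 over 2-fold lower at 112 against 51.8 CPM. For Abcg1 a single cell held 46.9% of the intact counts, and the means of cells were 65.4 and 52.2 CPM, a ratio of 0.797. At 1 year they summed to 808 and 815 CPM (1.01), with 5 of 11 higher and Insig2, the other INSIG gene, over 2-fold higher at 23.7 against 49.1 CPM, though by the mean of cells the Insig2 ratio was 1.76. Insig1, which rose in the low-input average, had ratios of 1.23 at 1 month and 0.77 at 1 year, and Pmvk had 0.63 and 1.15.

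**Figure D5:**
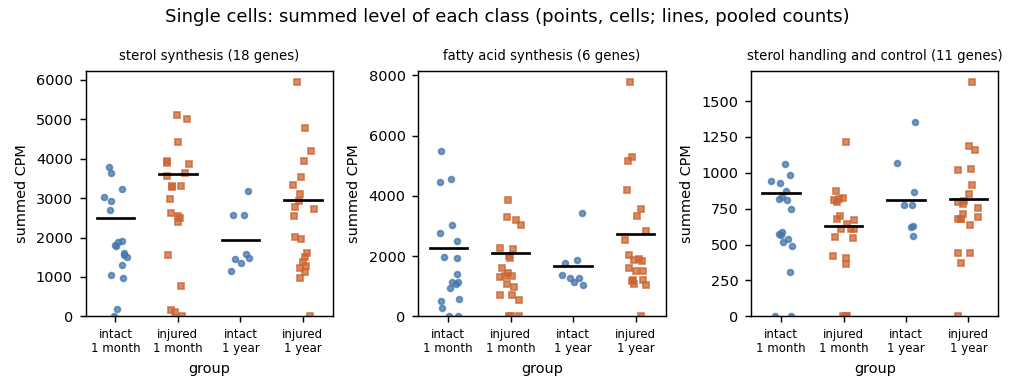
Summed CPM of each class in single cells (vertical axes, from 0) by group (horizontal axes). Points are cells, circles labelled intact and squares labelled injured, and black lines are the pooled values, which for sterol synthesis are 2507 and 3619 CPM at 1 month and 1937 and 2940 CPM at 1 year.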

How the data were processed

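The authors deposited raw fragment counts per gene and a column of exon lengths (unit: other, in bp), made with featureCounts 1.5.2, paired-end, unstranded, unique reads, over GENCODE vM16 exons with ERCC sequences, per the file headers. Trim Galore, STAR, Bismark and mm10 are named in the submitters' processing notes. All 87 count columns were mapped to samples by name and 0 were left unused. The 136 RNA samples carry 87 names, so samples that share a name were counted once.

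For low-input RNA (18 libraries), edgeR 4.0.16 in R 4.3.3 fitted the counts after filterByExpr and TMM scaling, with 1 mean for each of 6 groups. The filter left 14212 genes, 12 residual degrees of freedom and a common biological coefficient of variation of 0.543. A gene was called where its adjusted p (Benjamini-Hochberg, per contrast) was below 0.05. SE is the log2 change divided by the root of F. In simulated counts for the averaged contrast, run on 13500 genes, 56% and 52% of genes changed by a log2 of 1 and -1 were called, 96% and 92% of those changed by 2 and -2, and 0.0301% of unchanged genes. Counts were drawn from the model and dispersions that edgeR fitted, and only genes above a minimum mean CPM were changed. These rates thus do not cover less abundant genes or libraries that depart from that model. DESeq2 1.42.0 and limma 3.58.1 (voom) were alternatives, beside other scalings, no filter, a replicate block, only the groups compared, and each library left out.

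Members and lists were chosen with earlier results of these data known. Members called in any contrast, and those with the highest and lowest averaged change of each class, are named with every library's value. Of other lists, genes called in the average are named. Libraries sharing a replicate number were checked over 1669 genes by the correlation of their deviations: at 1 month these were 0.206, 0.218 and 0.485, at 8 months -0.498, -0.352 and 0.106, and at 12 months -0.0855, -0.0976 and 0.0823. The rule used (all over 0.1) was met at 1 month only, from the data and not the design. The highest correlation with a different number was 0.21, -0.0665 and -0.104 at 1 month and 0.608, 0.353 and 0.324 at 8 months. At 12 months it was 0.0815, 0.149 and 0.086. Different numbers can thus pass the same cut, so the rule does not show that the numbers pair libraries. A marker gene is not reported here.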

Additional observations from a re-analysis of the deposited data

Results flagged for a closer look

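A single cell far from the rest was sought in the 8 intact cells at 1 year, the only group of the size tested. Dixon's test at the 95% level was run on class sums, members and glial marker sums. Of 40 measures, 11 had such a cell. The 5% level of the test holds for normally distributed values. The CPM of single cells was not checked for that, so the share expected by chance is not known here. Measures of a cell are not independent of each other, and 3 cells account for all 11.

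The cell numbered 5 had the highest fatty acid synthesis sum, 3422 CPM against 1859 CPM in the next cell, the highest Scd1, 743 against 234 CPM, and the highest Fdps, 18.5 against 6.93 CPM. The cell numbered 6 had the highest Sqle, 704 against 296 CPM, Srebf1, 220 against 100 CPM, and Nr1h2 (an oxysterol receptor), 201 against 84.8 CPM. Its satellite glia marker sum was the lowest, 159 against 801 CPM. The cell numbered 8 had the highest Cyp51, 219 against 126 CPM, Npc1, 156 against 34.2 CPM, and Stard4 (a cytosolic sterol carrier), 184 against 74.5 CPM. Its Schwann cell marker sum was also the highest, 3791 against 1588 CPM. Mitochondrial genes gave 43.3% of its counts outside CT010467.1, against 0.0828% to 6.26% in the other cells of the group. Their part in its high values was not tested.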

How the results depend on the processing

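The number of members called moved with several choices, and the cause was not tested. The number of all genes called moved too, and is given in brackets. In the injury average the number of members was 5 (878) with TMM scaling, 35 (13493) with ERCC scaling and 10 (1548) with DESeq2. It was 2 (329) with the replicate block, Hsd17b7 and Sqle, and 0 (279) over 1 and 8 months only, an alternative chosen after seeing the data. At 12 months it was 6 (425), against 35 (13675) with ERCC scaling, 12 (1238) with DESeq2 and 1 (58) with the replicate block, Hsd17b7. It was 0 (52) when only the groups compared were fitted, which leaves fewer libraries to estimate the spread. Between intact 8 and 1 months it was 1 (131), against 0 with ERCC scaling (372), no filter (841) or only the groups compared (6). It was 2 (399) with limma-voom and 3 (842) with DESeq2. Between intact 12 and 1 months it was 0 (35), against 35 (12776) with ERCC scaling and 1 (268) with DESeq2. Between intact 12 and 8 months it was 7 (951), against 2 (866) with ERCC scaling and 0 (0) with only the groups compared. Between injured 12 and 1 months it was 0 (16), against 1 with no filter (85), limma-voom (33) or DESeq2 (55) and 4 (596) with only the groups compared. Between injured 12 and 8 months it was 0 (9), against 1 with no filter (103) or DESeq2 (57). The interaction had 0 (0), and 1 (207) with DESeq2. At 1 and 8 months, and between injured 8 and 1 months, 0 members were called in every alternative run. The most genes called in those 3 contrasts were 276, 661 and 234, all with no filter. DESeq2 called 123, 533 and 119 of all genes there. The replicate block changed no other count of members by more than 1.5 times.

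With single libraries left out in turn, 2 to 10 members were called in the injury average. It was 10 without intact 12-month replicate 2, 3 without intact 8-month replicate 3 or injured 8-month replicate 1 or 2, and 2 without intact 1-month replicate 1 or 2, injured 1-month replicate 1 or 3, injured 8-month replicate 3 or any injured 12-month library. All genes called numbered 1090 without injured 8-month replicate 1 and 1001 without intact 8-month replicate 3, both above the 878 of the main fit. At 12 months the range of members called was 1 to 10, with 1 without injured 12-month replicate 2, 3 without injured 12-month replicate 1 and 10 without intact 8-month replicate 1. Between intact 12 and 8 months the range was 2 to 10, with 2 without intact 8-month replicate 2 and 3 without intact 12-month replicate 3. Between intact 8 and 1 months it was 0 to 2, with 0 without any 1-month library, intact 8-month replicate 1 or 2, injured 8-month replicate 3, or injured 12-month replicate 1 or 3, and 2 without intact 12-month replicate 2 or 3. In the average Hsd17b7 and Sqle each kept their call in 25 of 26 alternatives, Acly and Insig1 in 13 and Acaca in 10, and at 12 months Hsd17b7 kept it in 25 of 26. These alternatives include ERCC scaling, which called 13493 of all genes in the average and 13675 at 12 months.

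With ERCC scaling the log2 change turned positive for Npc2 at 12 months (4.496) and, in the average, for Pmvk (2.69), Elovl6 (2.65) and Abcg1 (2.64), and Npc2 between intact 12 and 8 months turned to -1.34. The sterol handling median ranged from -0.0167 to 0.213 in the average when 1 library was left out, below 0 without intact 8-month replicate 1 or intact 12-month replicate 3, and from -0.0911 to 0.633 at 12 months, below 0 without intact 12-month replicate 3.

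For single cells the ratio of sums, injured to intact, was recomputed with all gene counts in the denominator, without mitochondrial genes, and as the mean of cells. Sterol synthesis gave 1.46 and 1.42 at 1 month for the first 2 of these, and 1.45, 1.501 and 1.31 at 1 year. Fatty acid synthesis gave 0.936, 0.9114 and 0.835 at 1 month and 1.55, 1.60 and 1.52 at 1 year. Sterol handling gave 0.90 at 1 month as the mean of cells, and at 1 year 0.964, 0.998 and 0.932, all below 1 where the pooled ratio was 1.01. Depth limits the intact 12-month libraries most.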
